A study of Mus musculus with 34 samples.

Results

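The striatum is the main input station of the basal ganglia, and nearly all of its neurons are striatal projection neurons. They fall into a pair of pathways that leave the striatum for different targets: neurons of the direct pathway carry the dopamine D1 receptor, and neurons of the indirect pathway carry the dopamine D2 receptor together with an adenosine receptor. Inside the cell, both receptor systems act on cyclic AMP, which is broken down by phosphodiesterases and acts through protein kinase A and its phosphatase inhibitor DARPP-32. The 9 genes described here are known for these neurons. Drd1 (the D1 receptor, formerly Drd1a) and Ebf1 (a transcription factor of the developing direct pathway) stand for the direct pathway, and Drd2 (the D2 receptor) and Adora2a (that adenosine receptor) for the indirect pathway. Ppp1r1b (DARPP-32), Rgs9 (a regulator of G protein signalling), Foxp1 (a forkhead transcription factor), Pde10a and Pde1b (phosphodiesterases) are shared by both pathways. The genes were chosen by name and matched to probes through the accession of each probe, which gave 15 probes for these 9 genes, of 20145 genes with a matched probe on the array.

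Each of 3 male C57BL/6J mice, at 3 days of age, gave a brain that was sliced along a single body axis: 15 coronal fractions of mouse 1, 8 horizontal fractions of mouse 2 and 11 sagittal fractions of mouse 3. The labels name no treatment or transgene, and the fractions hold whole tissue, so every cell type at that position was pooled; sagittal fractions 1 and 11 each pool 2 cut fractions. Each fraction was hybridised to 1 single-colour Agilent array, so no fraction has a replicate and the axis cannot be told apart from the mouse. A level below is the log2 signal of a probe less the log2 75th percentile of its array, and a probe is called detected in a fraction where its signal was flagged well above background. Between 29598 and 37091 spots were well above background on an array and 0 were saturated, and the SD of repeated spots was 0.06 to 0.11 (log2). The labels do not say from which end fractions were counted. The summed signal of 4 Purkinje cell markers was highest in coronal fraction 1 and that of 4 olfactory bulb markers in coronal fraction 15. In such bulk fractions, fewer cells of a type and less RNA per cell cannot be told apart.

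Of the 9 genes, 7 had promoter windows in the RefSeq table of GRCm38.p6, 14 windows in all, each reaching from 250 bases before a transcript start to 50 after it; Adora2a and Ppp1r1b had none. A window of Drd1 and the window of Drd2 are shown because the comparison of the pathways turns on this pair of receptor genes. A window of Foxp1 is shown because that gene encodes a forkhead factor itself. Capitals mark matches, on either strand, to a forkhead core (TGTTTA), an EBF palindrome (CCCNNGGG), a CRE half-site (TGACG) or a GC box (GGGCGG).
Drd1 at chr13:54055609-54055908, minus strand: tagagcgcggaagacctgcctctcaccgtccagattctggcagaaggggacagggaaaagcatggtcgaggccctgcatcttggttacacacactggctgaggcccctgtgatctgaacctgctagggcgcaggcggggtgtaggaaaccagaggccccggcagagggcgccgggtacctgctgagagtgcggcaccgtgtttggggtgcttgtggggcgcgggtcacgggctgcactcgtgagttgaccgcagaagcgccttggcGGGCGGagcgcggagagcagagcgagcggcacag
Drd2 at chr9:49340153-49340452, plus strand: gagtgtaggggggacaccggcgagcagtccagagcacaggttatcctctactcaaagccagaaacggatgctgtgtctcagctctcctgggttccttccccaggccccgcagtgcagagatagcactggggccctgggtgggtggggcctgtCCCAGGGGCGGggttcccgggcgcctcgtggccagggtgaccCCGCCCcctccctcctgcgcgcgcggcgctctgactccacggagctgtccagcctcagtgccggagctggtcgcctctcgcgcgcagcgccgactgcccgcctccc
Foxp1 at chr6:99266466-99266765, minus strand: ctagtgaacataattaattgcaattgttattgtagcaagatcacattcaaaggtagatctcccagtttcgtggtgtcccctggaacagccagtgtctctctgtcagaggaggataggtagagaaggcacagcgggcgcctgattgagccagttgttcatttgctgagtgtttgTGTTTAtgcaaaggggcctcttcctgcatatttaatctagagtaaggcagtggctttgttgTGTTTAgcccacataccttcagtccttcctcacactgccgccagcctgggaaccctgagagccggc
The Drd1 window shown held 1 GC box and none of the other motifs, and so did the other window of Drd1. In the Drd2 window an EBF palindrome ran into a GC box, and a further GC box lay downstream of them. The Foxp1 window held 2 forkhead cores, and the other windows of Foxp1 held 1 each. Over the 14 windows of the 7 genes, 4 held a forkhead core, 3 an EBF palindrome, 2 a CRE half-site and 9 a GC box. These windows belonged to 2, 3, 2 and 6 genes, in that order, since a gene can have several windows. The shares of all 32851 windows in the table were 13.4%, 13.7%, 20.8% and 35.7%. These matches are descriptions of letters in a window and not of binding.

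Along the coronal axis, 8 of the 9 genes reached their highest level in neighbouring fractions 11 (6 genes) and 12 (2 genes). Ppp1r1b, whose product DARPP-32 is the classic marker of striatal projection neurons, had the widest range. Its level was 4.50, 5.36 and 5.42 in coronal fractions 10, 11 and 12, against a lowest of 0.07 (fraction 5), a median of 1.26 and a highest of 4.28 (fraction 13) over the other 12 fractions. The highest and lowest fractions thus differed 41.0-fold, and fractions 10 to 12 did not overlap the rest. Drd1 had levels of 0.11, 0.60 and 0.24 in fractions 10, 11 and 12, and of -4.64 to -0.37 elsewhere with a median of -2.54. It was not well above background in fraction 1, and among the 14 fractions where it was detected its range was 29.1-fold. Adora2a had levels of 1.40, 2.11 and 1.62 in fractions 10, 11 and 12, and of -2.10 to 0.69 elsewhere with a median of -1.16. Both receptor genes therefore stood highest at the same coronal position.

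**Figure D1:**
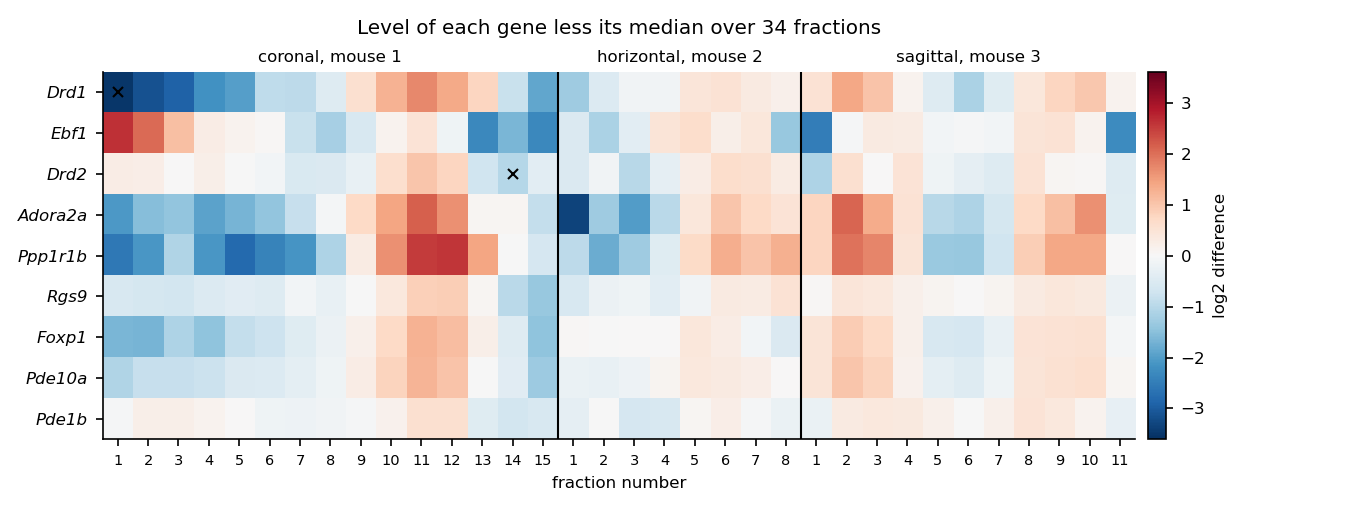
Log2 level of each of the 9 genes in every fraction (columns, by fraction number within the coronal, horizontal and sagittal series) less the median of that gene over the 34 fractions; red is above the median, blue below, and a cross marks a fraction where the probe was not well above background. Coronal fractions 10 to 12 are red for 8 genes, and the strongest red of Ebf1 lies in coronal fractions 1 and 2.

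The Drd2 probe was dim, with signal intensities of 18.3 to 96.4 over the 34 fractions, and was not well above background in coronal fraction 14. Its levels of -2.43, -2.03 and -2.28 in coronal fractions 10, 11 and 12 were nevertheless above every other coronal fraction, which lay between -4.05 and -2.76 with a median of -3.22. Another stretch of higher Drd2 levels lay at the other end, with -2.76, -2.81, -3.03 and -2.84 in coronal fractions 1 to 4. The midbrain dopamine neurons also use Drd2, as an autoreceptor. The summed signal of their 8 markers was highest in coronal fraction 6 (52.9 times the 75th percentile of the array, against 5.79 in fraction 1). The level of Drd2 was -3.13 in that fraction. Of the single markers, Slc6a3, Pitx3 and Aldh1a1 were highest in fraction 6 and Slc18a2 and En1 in fraction 4. Ddc was highest in fraction 5, Nr4a2 in fraction 7 and Th in fraction 15. The part of these cells in the Drd2 level was not tested.

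The remaining shared genes differed in how strongly they varied. Foxp1 stood at 5.03, 5.56 and 5.42 in coronal fractions 10, 11 and 12, and between 2.63 and 4.52 with a median of 3.51 in the others. Pde10a, the phosphodiesterase that is most typical of these neurons, stood at 3.35, 3.78 and 3.59 there and between 1.24 and 2.82 elsewhere with a median of 2.05. Rgs9 stood at 2.84, 3.32 and 3.35 there and between 1.09 and 2.53 elsewhere with a median of 1.98. None of these 3 genes overlapped between the groups. Pde1b, a calcium and calmodulin dependent phosphodiesterase, was the flattest. Its levels of 4.36, 4.79 and 4.78 in fractions 10 to 12 overlapped those of the other fractions (3.56 to 4.43, median 4.13), and its range over the coronal series was 2.34-fold. Fractions 10 to 12 lay above all other coronal fractions for 7 of the 9 genes; the same held for 1.04% of the 34186 probes detected in all series.

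Ebf1 did not follow this pattern. Its level was highest in coronal fractions 1 to 3 (3.08, 2.50 and 1.56), was -0.75 in fraction 8, and formed a lower hump of 0.59, 0.96 and 0.32 in fractions 10 to 12 before -1.85 in fraction 13. The end with the highest Ebf1 was the end where Pcp2 and the other Purkinje cell markers were highest: their summed signal was 77.2 in coronal fraction 1 and 0.77 in fraction 14, and the part of these cells in the Ebf1 level was not tested.

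The coronal position was tested with limma over 5 blocks of 3 fractions, as the mean of fractions 10 to 12 against the mean of the other 4 blocks, with Benjamini-Hochberg adjustment over all 34186 probes. Of the 9 genes, 8 were higher and 0 lower (adjusted p 0.0013 to 0.011), where 6.49% of all probes were higher and 3.42% lower. The log2 difference was 3.503 for Ppp1r1b (SE 0.50), 2.90 for Drd1 (SE 0.45), 2.65 for Adora2a (SE 0.29) and 1.83 for Foxp1 (SE 0.28). It was 1.56 for Pde10a, 1.20 for Rgs9, 1.02 for Drd2 and 0.57 for Pde1b. Ebf1 did not pass (0.38, SE 0.26, adjusted p 0.36). The median over the 9 genes was 1.56, against 0.08 over all probes. Neighbouring fractions of 1 brain stood in for replicates here, so these p-values measure the spread between positions in 1 mouse. Fractions 10 and 11 were on slide 3 and fraction 12 on slide 5, while fractions 1 to 8 were on slide 2. A fit with slide as a block was therefore run, in which fraction 12 no longer contributes. In it all 9 differences kept their sign (0.24 to 2.08) but 0 passed (adjusted p 0.46 to 0.94). Of the 9, 7 had an unadjusted p below 0.05. Of all 34186 probes, that fit called 1 higher and 8 lower. Within slide 3, fractions 10 and 11 were above fractions 9 and 13 to 15 by 0.79 (Pde1b) to 2.02 (Ebf1, against 0.38 over all fractions). Again there were 0 of 9 calls (adjusted p 0.999), where 0 of all probes were higher and 0 lower. The differences of Ppp1r1b and Drd1 were 1.80 and 1.82 within slide 3. Rgs9 and Pde1b lost the call when coronal fraction 11 (adjusted p 0.075 and 0.091) or 12 (0.063 and 0.070) was left out.

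**Figure D2:**
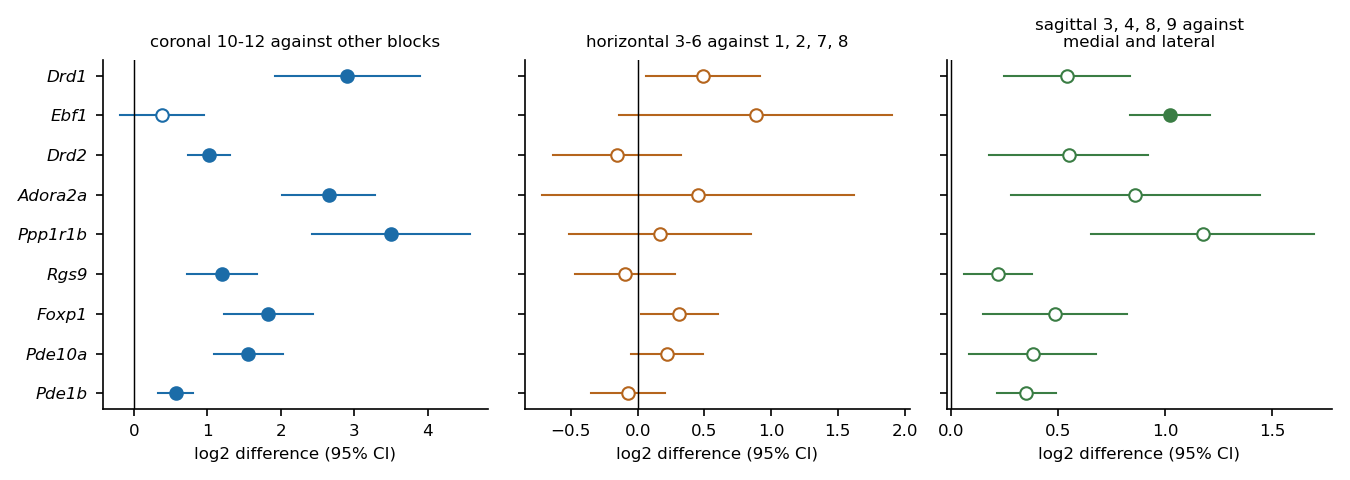
Log2 difference of each gene in the coronal, horizontal and sagittal comparison with its 95% confidence interval from limma; filled points passed an adjusted p of 0.05 over all probes and open points did not. The coronal panel has 8 filled points, the horizontal panel has 0, and the sagittal panel has 1, Ebf1; the horizontal scales of the panels differ.

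Along the horizontal axis the 9 genes varied less closely together. Drd1 was lowest in horizontal fraction 1 (-2.40), had a median of -1.11 and was highest in fraction 6 (-0.62). Adora2a covered a wider range, from -3.36 in fraction 1 through a median of -0.31 to 0.96 in fraction 6, a 20.0-fold difference. Ppp1r1b ran from 1.08 in fraction 2 to 4.17 in fraction 6 and was still 4.15 in fraction 8. Of the 9 genes, 5 were highest in fraction 6, 3 in fraction 5 (Ebf1, Foxp1 and Pde10a), and Rgs9 was highest in fraction 8. The comparison of fractions 3 to 6 with fractions 1, 2, 7 and 8 called 0 of the 9 genes in limma (adjusted p 0.26 to 0.77), and fractions 3 to 6 lay above all others for 0 of 9 genes, as they did for 1.86% of all probes. In that comparison 0% of all probes were higher and 0.00293% lower at the adjusted threshold (5745 of 34186 had an unadjusted p below 0.05). The largest estimate was that of Ebf1, 0.89 with a 95% confidence interval of -0.14 to 1.91. Within slide 1, which held fractions 1, 2 and 5 to 8, the difference was 1.55 for Adora2a and 1.09 for Ppp1r1b, against 0.45 and 0.17 over all 8 fractions, and 0 of 9 passed.

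Along the sagittal axis, the levels were low in the middle, higher on both sides and lower again at the outer ends. The middle fraction 6 was taken as the midline, which the labels do not state, so that fractions 5 and 7 form a mirror pair, and so on outwards to 1 and 11. Drd1 was -2.27 in fraction 6, -1.60 and -1.57 in fractions 5 and 7, -1.01 and -0.73 in 4 and 8, -0.11 and -0.37 in 3 and 9, 0.26 and -0.15 in 2 and 10, and -0.61 and -1.001 in 1 and 11. The within-pair SD of a single fraction, computed from the differences between mirror fractions, was 0.22 for Drd1. Of the neighbours in its order of distances, only those at distances 5 and 2 lay closer than this SD. Adora2a, Ppp1r1b, Foxp1 and Pde10a were also lowest in fraction 6 and highest on average in fractions 2 and 10. For Ppp1r1b, Foxp1 and Pde10a, the steps from distance 4 to 3, 2 to 5 and 1 to 0 were smaller than the within-pair SD of the gene. The last 2 of these steps were also smaller than it for Adora2a. Ppp1r1b, for example, was 1.505 in fraction 6 and 4.81 and 4.25 in fractions 2 and 10. For Drd1, Adora2a, Ppp1r1b, Foxp1 and Pde10a, fractions 4 and 5 were lower than their mirror fractions 8 and 7. Fractions 1, 2 and 3 were higher than 11, 10 and 9. The within-pair SD thus holds a difference between sides that these genes share. Whether the midline lay off fraction 6 was not tested.

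The other 4 genes were lowest on average in fractions 1 and 11. For Rgs9 this mean lay below the level in fraction 6 by less than its within-pair SD. Ebf1 was -2.04 and -1.79 in fractions 1 and 11, 0.42 in fraction 6, and 0.76 to 0.98 in fractions 3, 4, 8 and 9, which lay above all other sagittal fractions. Drd2 was highest on average in fractions 4 and 8 (-2.54 and -2.53), against -3.35 in fraction 6 and -4.14 and -3.51 in fractions 1 and 11. Its within-pair SD was 0.28, and 3 of the 5 steps in its order of distances were smaller than that. Rgs9 and Pde1b had narrow ranges of 1.57-fold and 1.72-fold over the 11 fractions. Fractions 3, 4, 8 and 9 of Pde1b, at 4.57 to 4.70, also lay above all others (3.92 to 4.52), which made 2 of 9 genes without overlap, against 0.392% of all probes.

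**Figure D3:**
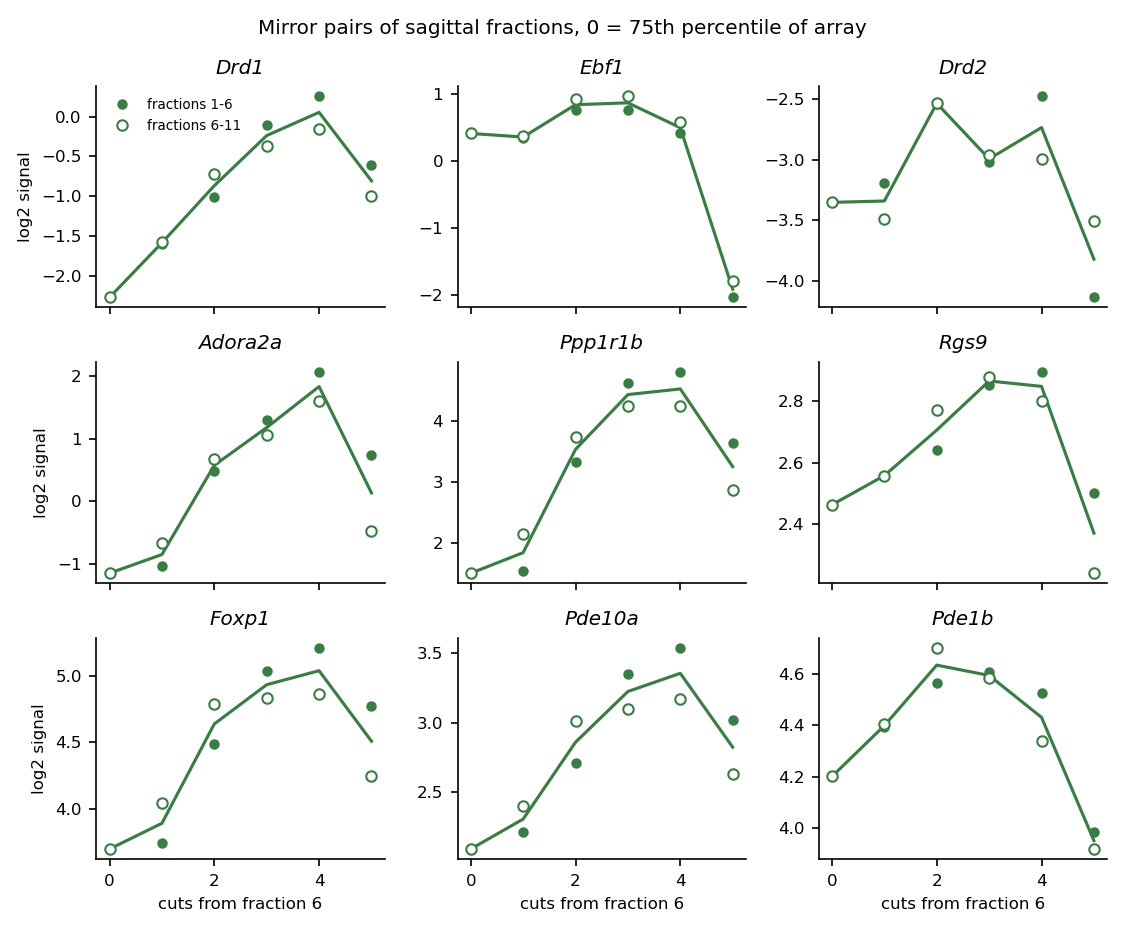
Log2 level of each gene in the sagittal fractions against the number of cuts from fraction 6; filled points are fractions 1 to 6, open points fractions 6 to 11, and the line is the mean of both sides. The mean of Drd1, Adora2a, Ppp1r1b, Foxp1 and Pde10a is highest 4 cuts from the middle and lowest in fraction 6, while Ebf1, Drd2, Rgs9 and Pde1b have their lowest mean 5 cuts away; each panel has its own vertical scale.

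Over the 6 distances from fraction 6, limma's F test called 7 of the 9 genes (adjusted p 0.0018 to 0.042), where it called 16.1% of all probes; Drd2 (0.065) and Rgs9 (0.066) did not pass. The comparison of fractions 3, 4, 8 and 9 with the mean of the medial fractions 5 to 7 and the lateral fractions 1, 2, 10 and 11 called Ebf1 alone (log2 difference 1.02, SE 0.08, adjusted p 0.0093), where 0.275% of all probes were higher and 0.216% lower. Ppp1r1b had a larger estimate with a larger error (1.18, SE 0.22, adjusted p 0.091). The 9 estimates ran from 0.22 (Rgs9) to 1.18 and had a median of 0.54, against -0.01 over all probes. In both this comparison and the F test, the sides of 1 brain stood in for replicates. Their p-values therefore measure the spread between the sides of 1 mouse. The Ebf1 call was lost within slide 4, where fraction 2 alone stood for the lateral ones (0.46, adjusted p 0.20), with slide as a block, where fraction 1 no longer contributes (1.05, adjusted p 0.055), and without sagittal fraction 8 (0.98, adjusted p 0.073). When fractions 2 and 10 were counted with the intermediate fractions, 5 of the 9 genes passed, among them Drd1 (0.96, adjusted p 0.031) and Adora2a (1.61, adjusted p 0.045). Of all 34186 probes, 163 were higher and 97 lower in that wider comparison.

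The direct and the indirect pathway were compared through the change of the difference between a pair of genes within each array. Levels of different probes are not comparable, so only how such a difference moves from fraction to fraction is described. Drd1 less Adora2a ran from -2.70 in coronal fraction 2 to -0.41 in fraction 13, with -0.61 in fraction 6, -1.51 to -1.21 in fractions 7 to 12, and -1.99 and -2.13 in fractions 14 and 15. In the horizontal series it ran from 0.95 in fraction 1 to -1.59, where Drd1 less Drd2 lay between 1.16 and 2.77. Along the coronal axis Drd1 less Drd2 was -1.87, -1.46 and -1.03 in coronal fractions 1, 2 and 3, 2.54, 2.63 and 2.52 in fractions 10 to 12, 3.38 in fraction 13, and 0.41 in fraction 15. The markers of the indirect pathway also moved apart: Drd2 less Adora2a went from -0.66 in fraction 1 to -4.14 in fraction 11. Drd1 was not well above background in coronal fraction 1, nor Drd2 in fraction 14, so the differences there rest on a signal that is only a bound. Other differences rest on dim signals as well. The intensity of Drd2 was 22.8 and 25.1 in coronal fractions 13 and 15, against 24.3 in fraction 14. That of Drd1 was 25.6 and 30.3 in coronal fractions 2 and 3. How far such dim signals shaped the differences was not tested.

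**Figure D4:**
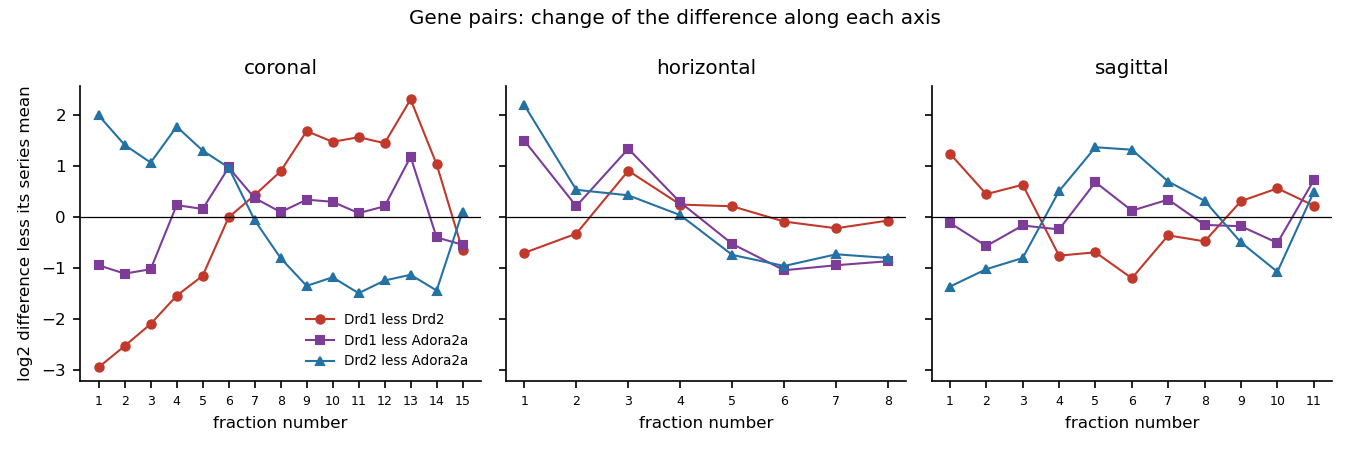
Difference in log2 level between a pair of genes in each fraction, less the mean of that difference over its series; circles are Drd1 less Drd2, squares Drd1 less Adora2a and triangles Drd2 less Adora2a. In the coronal series Drd1 less Drd2 rises at each step from fraction 1, its lowest, to fraction 9, while Drd2 less Adora2a is lower in the later fractions. Drd1 less Adora2a has the narrowest range of the 3 there (-2.70 to -0.41 before the mean is taken off).

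Each of these 3 differences was tested in 4 groupings of fractions with a two-sided exact permutation test, 12 tests in all, and none passed after Benjamini-Hochberg adjustment over the 12. Drd1 less Drd2 was higher in coronal fractions 10 to 12 than in the other 12 by 1.88 (2.57 ± 0.06, SD, n = 3, against 0.69 ± 1.71, n = 12; exact permutation p = 0.088, adjusted 0.26). Drd2 less Adora2a was lower there by 1.63 (exact permutation p = 0.057, adjusted 0.23), and Drd1 less Adora2a differed by 0.25 (exact permutation p = 0.59, adjusted 0.79), which turned to -0.27 with normexp background correction. The smallest p that this grouping allows is 0.0022, and neighbouring fractions are not independent. In horizontal fractions 3 to 6, Drd1 less Drd2 was higher by 0.65 (exact permutation p = 0.057, adjusted 0.23; smallest possible 0.029). In the sagittal series the 3 differences moved by -0.28 to -0.10 (exact permutation p from 0.31 to 0.83), of which Drd1 less Drd2 turned to 0.12 with normexp. In coronal fractions 4 to 6, where the summed midbrain dopamine markers were highest (fraction 6) although Th was highest in fraction 15 and Nr4a2 in fraction 7, Drd2 less Adora2a was higher than elsewhere by 1.69 (exact permutation p = 0.040, adjusted 0.23) and Drd1 less Drd2 was -1.12 from elsewhere (exact permutation p = 0.34, adjusted 0.58).

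**Figure D5:**
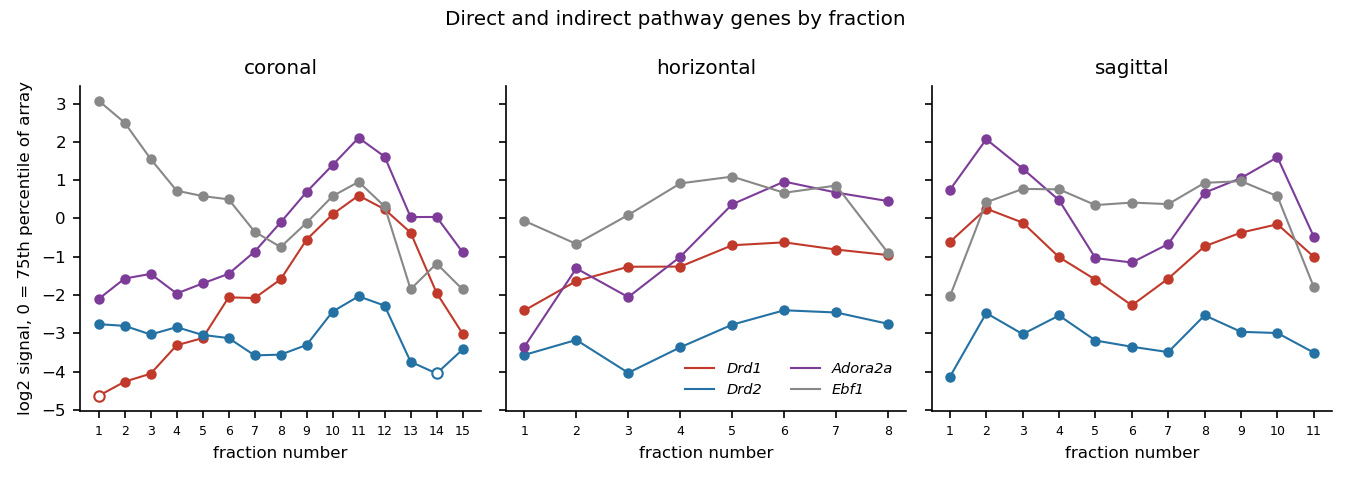
Log2 level of Drd1, Drd2, Adora2a and Ebf1 in each fraction of the 3 series; open points were not well above background. Heights of different genes are not comparable, since each is a different probe. Drd1, Drd2 and Adora2a share the maximum in coronal fraction 11, and Ebf1 is highest in coronal fraction 1.

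Likeness over all 34 fractions was described by Pearson's r, without a test, since fractions of a brain are neighbours and share the array scaling. Of the 36 pairs among the 9 genes, 7 reached the threshold of 0.85 used here. They joined Foxp1 and Pde10a (0.96), Drd1 and Foxp1 (0.94), Drd1 and Pde10a (0.93), Adora2a and Ppp1r1b (0.89), Rgs9 and Pde10a (0.86), Ppp1r1b and Pde10a (0.86), and Drd1 and Ppp1r1b (0.85). No pair with Drd2, Ebf1 or Pde1b was among them. The highest value of Drd2 was 0.77, with Pde1b, and its r was 0.23 with Drd1 and 0.46 with Adora2a. With Adora2a it was 0.32 (coronal), 0.88 (horizontal) and 0.45 (sagittal) within a series, and with Drd1 0.20, 0.66 and 0.37. Normexp background correction gave Drd2 an r of 0.61 with Adora2a and 0.47 with Drd1 over the 34 fractions. For Drd1 and Adora2a r was 0.82 over the 34 fractions, while within a series it was 0.93 (coronal), 0.93 (horizontal) and 0.96 (sagittal). Ebf1 and Drd1 had the lowest r of all pairs, -0.30, which rested on coronal fractions 1 and 2: without them r was 0.04, the rank correlation over all 34 was -0.04, and r was 0.44 in the horizontal and 0.07 in the sagittal series. The high values of Foxp1 came from the coronal and sagittal series: within the horizontal series its r was 0.12 with Drd1, -0.01 with Adora2a and 0.39 with Pde10a.

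The named genes most like each gene were sought outside the 9. Those most like Drd1 over the 34 fractions were Nos1ap (0.94), the immediate early gene Egr4 (0.94) and Bcl11b (0.93). Bcl11b encodes a transcription factor of striatal and deep-layer cortical neurons. Within the horizontal series alone, these 3 had an r of 0.15, 0.80 and 0.85 with Drd1. Foxp1 was most like Gucy1a1 (0.94), Nos1ap (0.94) and Gucy1b1 (0.93), with 0.38, 0.31 and 0.15 within the horizontal series. Gucy1a1 and Gucy1b1 encode the subunits of the nitric oxide receptor guanylate cyclase. Pde10a and Rgs9 shared Ngef as the closest gene (0.92 and 0.91), followed by Rasgef1b (0.92) and Nos1ap (0.91) for Pde10a and by St8sia3 (0.89) and Cpne5 (0.88) for Rgs9. In that order, those of Pde10a had 0.53, 0.82 and 0.22 within the horizontal series. Those of Rgs9 had 0.52, 0.56 and 0.49 within the sagittal series. Ppp1r1b was closest to Arpp21 (0.91), which encodes another phosphoprotein regulated by cyclic AMP, and then to Gng7 (0.89), a G protein subunit, and Bcl11b (0.88). Adora2a was closest to Wfdc18 (0.88), Arpp21 (0.87) and Adrb1 (0.84). For Drd2 they were Pde7b (0.87), Slc35d3 (0.85), which had been listed with the direct pathway, and the retinoid receptor Rxrg (0.80). Ebf1 was closest to Dach1 (0.91), Strip2 (0.88) and Zfp521 (0.88), the last a zinc finger gene known to act with EBF factors. Pde1b had none above 0.80: Zfp503 (0.80), Tpbg (0.77) and Tac1 (0.76). Probes at an r of at least 0.85 were then counted, those of the 9 genes included. There were 77 for Drd1, 69 for Foxp1, 31 for Pde10a, 13 for Ppp1r1b and 11 for Rgs9. There were 9 for Ebf1, 3 for Adora2a, 1 for Drd2 and 0 for Pde1b.

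Other genes of striatal projection neurons were taken from 4 lists with 31 genes, of which 30 were tested; in the coronal comparison, 18 were higher and 0 lower, where 6.49% of all probes were higher and 3.42% lower. Of the 6 direct pathway genes, 3 passed: Isl1 (log2 difference 3.36), a homeodomain factor of the direct pathway, Slc35d3 (1.40), and Tac1 (0.78), the substance P precursor. Pdyn, the dynorphin precursor (0.68, adjusted p 0.21), Chrm4, a muscarinic receptor (0.58, adjusted p 0.10), and Eya1 (0.09) did not. Of the 6 indirect pathway genes, 5 were tested and 4 passed: Six3 (2.62) and Sp9 (2.10), transcription factors, and the receptors Gpr6 (1.82) and P2ry1 (1.13). Penk, the enkephalin precursor, did not (0.99, adjusted p 0.069). Gpr52 was not tested because it was well above background in 0 of 8 horizontal fractions, and tests needed detection in every series. It was detected in 3 of 15 coronal and 3 of 11 sagittal fractions.

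Of 11 genes of signalling in these neurons, 6 passed, with Arpp21 (2.89), Gng7 (2.08) and Actn2 (1.36), an actin cross-linker, at the top. The estimates were lowest for Rasgrp2 (-0.17), Ptpn5 (0.16), the phosphatase STEP, and Scn4b (0.24), a sodium channel subunit, and these did not pass. Of 8 transcription factors, 5 passed, led by the retinoid receptors Rxrg (2.66) and Rarb (2.48) and by Ikzf1 (2.37). The lowest estimates in that list were Foxp2 (0.15) and Ikzf2 (0.41), which did not pass, and Zfp503 (0.97), which did. In the sagittal comparison, where 0.275% of all probes were higher and 0.216% lower, 7 of the 30 genes were higher and 0 lower: Isl1 (1.24), Tac1 (0.83), P2ry1 (0.60), Arpp21 (1.20), Foxp2 (0.82), Rarb (1.15) and Rxrg (1.43). The F test over distances called 21 of the 30, against 16.1% of all probes, and the horizontal comparison called 0, against 0% higher and 0.00293% lower.

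Markers of other cell types also stood higher or lower at the same positions. Of 6 basal forebrain and pallidum markers, 2 were higher in coronal fractions 10 to 12 (Lhx8 and Nkx2-1), and their summed signal was 12.1 to 21.1 there against 5.94 to 12.3 elsewhere. Of 6 cortical projection neuron markers, 1 was higher (Emx1), and their sum, 55.7 to 77.6 there, lay within the range of the other fractions (6.39 to 119.6), with its highest value in fraction 13. The median log2 difference was 1.91 over the cortical and 1.70 over the basal forebrain and pallidum markers, against 1.56 over the 9 genes. Over the other marker lists of this paragraph it ran from -1.03 (olfactory bulb) to 0.45 (choroid plexus). The sum of the 8 mural cell and fibroblast markers was 38.5 to 42.9 there and 42.9 to 184 elsewhere, and 2 of the 8 were lower (Dcn and Lum). Of the midbrain dopamine markers, 1 of the 7 tested was lower (Ddc), and their summed signal was 10.8 to 12.6 there and 5.79 to 52.9 elsewhere; En1 was not well above background in any of the 3 fractions. Of the other lists, 1 of 6 endothelial, 1 of 4 olfactory bulb and 2 of 4 Purkinje cell markers (Pcp2 and Car8) were lower, and 0 of 5 choroid plexus markers passed. Their summed signals in fractions 10 to 12 were 36.2 to 52.8, 1.81 to 2.48, 1.05 to 1.80 and 36.1 to 208, all within the range of the other fractions. The part of these cells in the levels of the 9 genes was not tested.

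Where a gene had several probes, the one detected in most fractions stood for it, and among equals the one with the highest median signal. A further probe each of Rgs9 and Pde10a and a further probe of Foxp1 followed it with an r of 0.99 to 1.00 over the 34 fractions, and their coronal differences were 1.22, 1.52 and 2.03. A probe for another Foxp1 transcript had an r of 0.91 and a difference of 1.36. A probe for another Rgs9 transcript disagreed: its r with the main probe was 0.20, its highest level was in sagittal fraction 5, and its coronal difference was -0.12 (adjusted p 0.61). The last Pde10a probe was well above background in 1 fraction of 34, horizontal fraction 5, and was not tested.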

How the data were processed

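Whole-tissue fractions of 3 brains were measured on 34 single-colour arrays. The authors deposited spot intensity values from Agilent Feature Extraction 10.10.1.1 (a background-subtracted processed signal, not scaled between arrays), and log2 values that are this signal less a constant near the 75th percentile of each array (99.9% to within 0.02). Spots of a probe were averaged without outliers, put on the log2 scale and set against the array's 75th percentile. Tests ran on the 34186 of 55681 probes flagged above background in 1 or more fractions of every series; 26582 had a symbol through RefSeq accessions (GRCm38.p6).

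Blocks of fractions were compared with limma 3.58.1 in R 4.3.3 (lmFit, eBayes, Benjamini-Hochberg adjusted p under 0.05), and pairs of genes by exact permutation in Python 3.11.15 (numpy 2.4.6, scipy 1.17.1, pandas 2.3.3). The limma code was tested on simulated data, and the permutation code on a constructed example. The simulated noise was independent between fractions, unlike that of neighbouring fractions of a brain.

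The 9 genes, marker lists, blocks and tests were chosen with earlier results of these data known. Named were the 9 genes and the 3 largest and 3 smallest coronal differences of each list of striatal genes. Also named were the 3 genes outside the 9 that were most like each of them. Other names were chosen after their values were seen. Alternatives were the array median, quantile normalization, normexp with an offset of 50 (on median spot signals), the authors' log2 values, other detection filters, limma-trend, slides, a wider sagittal group, and leaving out single fractions. The number of arrays limits the precision. Results for 2 further genes of the lists are not reported here.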

Additional observations from a re-analysis of the deposited data

How the results depend on the processing

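The coronal count of 8 genes was also 8 under the array median, quantile normalization, normexp, the authors' log2 values, no detection filter and limma-trend, and 6 of 7 with probes detected in every fraction; it was 0 with slide as a block and 0 within slide 3, where the fits used fewer fractions or degrees of freedom, and 6 to 8 without single fractions. Over all probes, coronal calls were 2218 higher and 1168 lower. They were 994 and 1060 with the array median, 1639 and 1467 with quantile normalization, and 932 and 564 with no detection filter. With slide as a block they were 1 and 8, and within slide 3 they were 0 and 0. They were 178 and 137 without coronal fraction 11, and 326 and 223 without fraction 12. The cause was not tested. The sagittal count of 1 became 2 with quantile normalization, 3 with normexp, with limma-trend and with probes detected in every fraction, 5 with the wider intermediate group, and 0 within slide 4 and with slide as a block (added after seeing the data); without single fractions it was 0 (fraction 8) to 1. All-probe sagittal calls, 94 higher and 74 lower, were 239 and 238 with normexp and 280 and 324 with limma-trend. They were 163 and 97 with the wider intermediate group. The distance test's 7 became 8 with quantile normalization, 9 with normexp and with limma-trend, 7 of 7 with probes detected in every fraction, 4 with no detection filter, 2 within slide 4, 3 with slide as a block and 3 to 5 without single fractions. Of 34186 probes it called 5512, against 326 to 9395 under the other settings.

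In the horizontal comparison, where none passed, the estimate of Drd2 turned from -0.16 to 0.40, of Pde1b from -0.07 to 0.30 and of Rgs9 from -0.10 to 0.088 within slide 1. Without single fractions, Drd2 ran from -0.32 to 0.011, Pde1b from -0.15 to 0.0060, Rgs9 from -0.21 to 0.021, Adora2a from -0.061 to 0.97 and Ppp1r1b from -0.041 to 0.38. Among the 12 differences between gene pairs, normexp turned Drd1 less Adora2a in coronal 10 to 12 to -0.27 and Drd1 less Drd2 in the sagittal grouping to 0.12. Without single fractions, Drd1 less Adora2a in the horizontal grouping ran from -0.40 to 0.55, Drd2 less Adora2a there from -0.98 to 0.024, Drd1 less Drd2 in the sagittal grouping from -0.34 to 0.12 and Drd2 less Adora2a there from -0.42 to 0.050; none of the 12 passed under any setting run. The 7 pairs at an r of 0.85 became 12 within the coronal, 2 within the horizontal and 11 within the sagittal series. Drd1 in coronal fraction 1 and Drd2 in coronal fraction 14 were not well above background, so their levels there are only bounds. No paired analysis was possible because fraction numbers shared between series are positions along different axes of different brains.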
